A study of Homo sapiens with 19 samples.

Results

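The modal-ploid and the hyper-ploid subline of the bone-metastatic line 1833 were compared with 4 strongly bone-metastatic lines, 1833 itself, 2274, 2268 and 2269. These are 2 and 4 of the 19 arrays in the series, chosen by their titles, with 1 array for each cell line. All the lines descend from MDA-MB-231, a mesenchymal triple-negative human breast cancer line. The lines with numbers were grouped by the authors as strongly or weakly metastatic to bone or lung. The line 1833 on the array was the original subline after short culture. The 1833-modal and 1833-hyper sublines differ by DNA content, and the labels do not say how they were isolated or whether either is 1 clone. All cells were grown in culture under the same stated protocol, in medium that held selective drugs where a line needed them, and RNA was taken before confluence. The 3 weakly bone-metastatic lines (2293, 2295 and 2296) and the parental line share the ratio divisor of these 6 arrays, and give further levels below. By its title, the study asked whether spontaneously doubled ploidy enhances metastasis of these cells. The comparison here is of both sublines with the strong lines, whatever their DNA content.

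Bone-seeking variants of MDA-MB-231 have long been known to express a set of secreted and surface proteins, among them interleukin 11, CTGF (now CCN2), MMP1 and CXCR4, which act on bone cells, matrix and homing. MDA-MB-231 cells are aneuploid, and their sublines are known to differ in karyotype. Many tumour lines also express cancer/testis antigens, germ-line proteins with many genes on X that are silent in most adult tissues.

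Each probe set's value was deposited as a ratio to 1 divisor shared by 10 arrays, so ratios can be compared between arrays for a gene and not between genes. Signals recovered from the ratios and scaled to a common array median of 143.3 units are printed below, and differences are on the log2 scale of the deposited ratios, sublines minus strong bone lines. Probe sets above the 40th percentile of their own array on at least 2 of the 10 arrays were tested, 9117 genes in all. limma with Benjamini-Hochberg adjustment and a threshold of 0.05 gave the calls. The 2 sublines have a common origin, and the line they come from is 1 of the 4 strong bone lines. limma counted the 2 sublines as independent arrays. The p-values therefore pool the spread between the 2 related sublines with the spread between the 4 lines. The spread between sublines of different origin was not measured, so the p-values may be too small.

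The 2 subline arrays stood apart from the lines in ways that the labels do not explain. Mean recovered signal, after removing 2% at each end, was 353.7 and 360.8 on the subline arrays, against 499.8 to 499.9 on the strong bone arrays. Hybridisation spike-in controls, averaged as log2 signals after scaling, were 10.32 and 10.35 on the subline arrays and between 11.3 and 11.8 on the strong bone arrays. The sublines of the lung line 4175 had likewise low mean signals, 323.1 and 346.3. The parental, weak bone and lung line arrays all had means of 499.4 to 499.9. Why only the ploidy subline arrays departed from this nearly constant mean was not tested, and it need not be a difference in brightness. No batch is given in the labels, so array handling and group cannot be told apart in the comparison with the strong bone lines. All 8 markers that MDA-MB-231 cells carry, vimentin and CD44 among them, were above the 40th percentile on every array of both groups. Of 8 markers that these cells should lack, PGR, CDH1 and FOXA1 were at or below that level on every array, ERBB2, EPCAM and GATA3 were above it on every array, and ESR1 and KRT5 were mixed. Leukocyte markers (18 of 20 on the array) summed to scaled signals of 2580 to 3574 in the sublines and 2980 to 4556 in the strong lines and their part in the results was not tested.

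The sublines were higher than the strong bone lines for 212 genes (2.33% of those tested) and lower for 179 (1.96%), or 391 in all (4.29%), and 2291 genes had an unadjusted p under 0.05. All 391 had both sublines outside the range of the 4 strong lines, where 22.6% of all tested genes lay above that range and 15.7% below it, 38.3% together. Of the 391, 323 were also outside the range of the weak lines and the parental line, 180 above (14.4% of tested genes lay above) and 143 below (8.94%), where 23.4% of tested genes were outside on either side. The smallest called difference was 0.77 in size, and 189 of the higher and 167 of the lower genes were over 2-fold. The original 1833 array is 1 of the 4 strong lines, so in all 391 genes both sublines necessarily lay on the same side of it. In 295 of the 391 both were over 2-fold from it. Among all tested genes, 483 (5.3%) were over 2-fold above the original 1833 in both sublines and 409 (4.49%) were over 2-fold below it, 9.78% together. The count rests on all 6 arrays. It was 2 higher and 17 lower without 1833-modal, 2 and 7 without 1833-hyper, 27 and 40 without line 1833, 38 and 49 without 2274, 132 and 103 without 2268, and 246 and 253 without 2269. With 1 subline left, that subline was taken to vary like the strong lines. Across the tested genes the rank correlation of 1833-modal with 1833-hyper was 0.981, and that of the sublines with the strong lines was 0.921 to 0.941, a description of arrays that share genes and platform.

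MAGEA6, a cancer/testis antigen on X, had the highest difference of the called genes, followed by CCL2 and LDB2, which are described below. MAGEA6 had scaled signals of 3823 in 1833-modal and 5748 in 1833-hyper, against 17.3, 39.3, 4.63 and 8.85 in strong lines 1833, 2274, 2268 and 2269. The sublines did not overlap the strong lines, in which MAGEA6 lay at or below the 40th percentile throughout. The level was at least 55.2-fold higher (log2 difference 8.50, SE 0.79, adjusted p = 0.0117). MAGEA12 had 686 and 978 units in the modal and hyper sublines, against 51.8, 10.7, 33.4 and 29.9 in lines 1833, 2274, 2268 and 2269. It was at least 9.65-fold higher (adjusted p = 0.0172), and no strong line came near a subline. SPANXB1, of an X-linked family of sperm nuclear proteins, had 3209 and 6211 units in the sublines and 93.8 to 299 in the strong lines, and its level rose 29.1-fold (adjusted p = 0.0117). The weak lines had 1117 to 9591 units of SPANXB1 and the parental line 650, so the sublines lay within the range of the other arrays. SSX1, a nuclear repressor of the same class, had 855 and 1337 units in the sublines and 18.4 to 103 in the strong lines (19.1-fold, adjusted p = 0.0300). The weak lines 2293, 2295 and 2296 had 805, 396 and 138 units of SSX1, and the parental line 68.2.

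Family members near these genes were looked up after their values had been seen. Among the MAGEA genes on the array, 4 of 7 probe sets passed the filter on dim values, all 4 with differences above 0, and MAGEA6 and MAGEA12 were called. MAGEA1 had a difference of 2.75 (adjusted p = 0.079). Of 6 SSX probe sets, 5 passed the filter, from SSX1 and SSX3, with differences above 0, and SSX2B, which did not pass it, had -0.70. By its tested probe set SSX3 had 263 and 324 units in the modal and hyper sublines. The weak lines had 64.7 to 279, so 1 of them, 2293, lay between the sublines. Related copies can share probes: the 300-base RefSeq promoter sequences of MAGEA6 and MAGEA3 were identical at all 300 positions, and the probe set named MAGEA6 may report either. Both family counts are descriptions only, since dim probe sets could pass the filter through the arrays where they are high.

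CCL2, a chemokine that draws monocytes and macrophages, had 3216 units in 1833-modal and 3243 in 1833-hyper, against 15.6, 13.0, 59.5 and 26.5 in lines 1833, 2274, 2268 and 2269. The modal and hyper sublines were almost equal, and both lay far above every other bone line and the parental line, which had 155 units. CCL2 was at least 38.1-fold higher in the sublines (log2 difference 7.08, SE 0.59, adjusted p = 0.00768). It was the only 1 of 17 tested NF-kB and inflammatory cytokine genes that passed, against 4.29% of all genes in either direction. The list's median difference was 0.17, against 0.05 over all genes tested. That median was 0.62 without 1833-modal and -0.24 without 1833-hyper. LDB2, a LIM domain binding cofactor, had 227 and 795 units in the modal and hyper sublines and 3.50 to 20.9 in the strong lines, at least 5.01-fold higher (adjusted p = 0.0256). OLFML3, a secreted olfactomedin-domain protein, had 131 and 341 units in the sublines and 4.34 to 13.6 in the strong lines, at least 2.49-fold higher (adjusted p = 0.0172). In LDB2 and OLFML3 the hyper subline was more than 2-fold above the modal one. AMPH, the endocytic protein amphiphysin, had 1096 and 1015 units in the sublines and 38.2 to 118 in the strong lines (15.2-fold, adjusted p = 0.0162).

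EPB41L3, a membrane-skeleton protein that restrains growth in several tumours, had 386 units in 1833-modal and 132 in 1833-hyper, against 14.9 to 28.8 in the strong lines (at least 2.66-fold, adjusted p = 0.0227). KCNQ3, a voltage-gated potassium channel, had 105 and 109 units in the sublines and 7.11 to 20.5 in the strong lines, at least 1.27-fold higher (adjusted p = 0.0260). For both genes the sublines lay above the other 8 arrays. LRIG1, an inhibitor of receptor tyrosine kinases such as EGFR, had 246 and 254 units in the sublines and 74.9, 14.6, 15.8 and 12 in lines 1833, 2274, 2268 and 2269 (at least 2.94-fold, adjusted p = 0.0480). The weak lines had 207 to 236 units of LRIG1 and the parental line 417, so the strong bone lines were the low ones. TM7SF3, a seven-membrane-span protein, had 84.3 and 91.8 units in the sublines and 3.63 to 22.7 in the strong lines, with a bound of 1.04-fold (adjusted p = 0.0441). In LRIG1 and TM7SF3 the original 1833 was the highest of the strong lines.

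**Figure D1:**
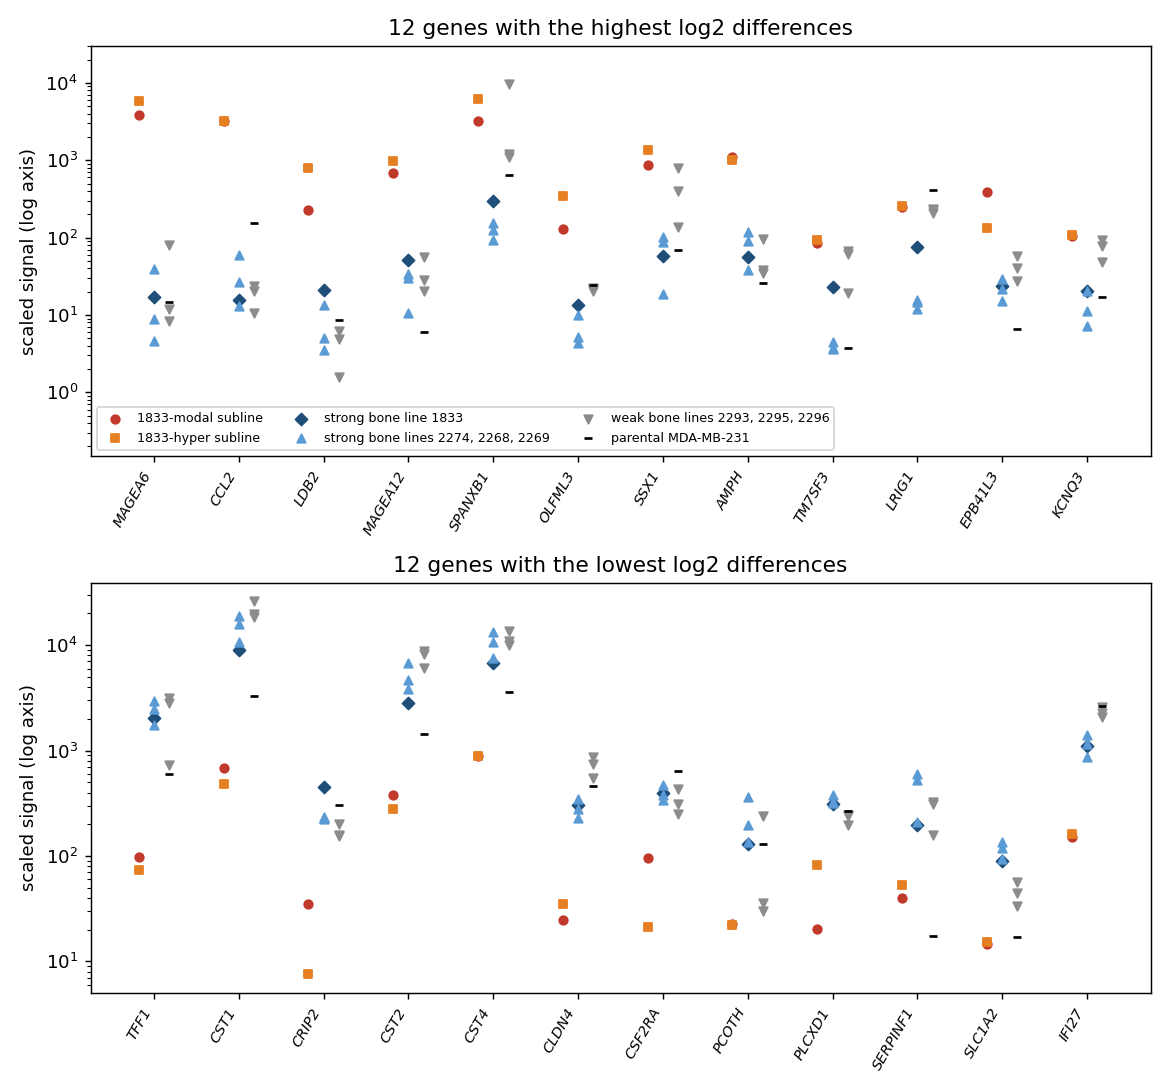
Scaled signal (log axis) of each array for the 12 genes with the highest and the 12 with the lowest log2 differences among the genes that met the naming rule; red and orange are the 1833-modal and 1833-hyper sublines, blue the strong bone lines, grey the weak bone lines and the dash the parental line. In all 24 genes both sublines lie outside the strong lines; MAGEA6 has 3823 and 5748 units in the sublines, against 39.3 or fewer in the strong lines.

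The lowest difference of the called genes was that of TFF1, a trefoil peptide of mucous surfaces and a classical oestrogen target. It had 98.9 units in 1833-modal and 73.5 in 1833-hyper, against 2050, 2944, 2503 and 1742 in lines 1833, 2274, 2268 and 2269. The weak and parental lines held 603 to 3144 units, so the sublines lay below all 8 other arrays. TFF1 fell 26.6-fold (log2 difference -4.73, SE 0.27, adjusted p = 0.0061). The neighbouring family members TFF2 (log2 difference -2.02, adjusted p = 0.033) and TFF3 (-1.94, adjusted p = 0.040) fell too, and for both the hyper subline was more than 2-fold below the modal one. TFF2 had 479 and 204 units in the modal and hyper sublines, against 198 in weak line 2296 and 417 in the parental line. TFF3 had 295 and 137 units in the sublines, against 197 in 2296 and 60.1 in the parental line. Weak lines 2293 and 2295 lay above the sublines for both genes.

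Of 8 tested genes for cystatins, secreted inhibitors of cysteine proteases, 4 passed and were lower, against 1.96% of all genes lower. CST1 had 683 and 480 units in the modal and hyper sublines and 8949 to 18941 in the strong lines, 22.7-fold lower (adjusted p = 0.00715). CST2 had 383 and 278 units in the sublines and 2847 to 6810 in the strong lines (13.3-fold lower, adjusted p = 0.0117). CST4 had 880 and 897 units in the sublines and 6820 to 13207 in the strong lines (10.4-fold lower, adjusted p = 0.0104). CST6, the skin and breast cystatin, had 25.8 and 61.0 units in the sublines and 127 to 271 in the strong lines, at least 2.45-fold lower (adjusted p = 0.0480). The other four had differences below 0 that did not pass: CST5 -1.73 (adjusted p = 0.0503), CST8 -0.70 (0.209), CST3, the widely expressed cystatin C, -0.44 (0.236), and CST7 -0.14 (0.917), in which the sublines and strong lines overlapped. CST1, CST2 and CST4 are closely related copies that probes may not separate, and the family was chosen after its values had been seen.

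CRIP2, a LIM-domain protein, had 35.2 units in 1833-modal and 7.54 in 1833-hyper, against 453, 230, 235 and 224 in lines 1833, 2274, 2268 and 2269 (at least 3.45-fold lower, adjusted p = 0.0260). CLDN4, a tight-junction claudin, had 24.5 and 35.1 units in the sublines and 228 to 344 in the strong lines, at least 3.62-fold lower (adjusted p = 0.00715). SERPINF1, which encodes the anti-angiogenic factor PEDF, had 39.7 and 53.3 units in the sublines and 198 to 598 in the strong lines (at least 4.28-fold lower, adjusted p = 0.0387). The parental line had 17.5 units of SERPINF1, below the sublines. SLC1A2, a glutamate transporter, had 14.7 and 15.4 units in the sublines and 90.2 to 137 in the strong lines, at least 1.37-fold lower (adjusted p = 0.00715), but another probe set chosen when no dim filter was applied gave a difference above 0. PCOTH had 22.7 and 22.3 units in the sublines and 129 to 362 in the strong lines (at least 2.39-fold lower, adjusted p = 0.0235). The receptor subunit CSF2RA and PLCXD1 are described with their chromosome below.

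Of 10 tested genes that mark bone metastasis in this system, 0 passed limma in either direction, against 4.29% of all genes, 1 had an unadjusted p under 0.05, and the median difference was -0.26. With 10 genes a count of 0 is near that background and is not a result about the list. FGF5, a growth factor, came nearest, with 89.8 and 112 units in the modal and hyper sublines, against 172 to 220 in the strong lines (log2 difference -0.92, adjusted p = 0.0513). It passed in 4 of the 8 alternatives that keep all 6 arrays, among them the log2(signal + 16) scale. IL11, an osteoclast-stimulating cytokine, had 1320 and 2493 units in the sublines and 1203 to 3050 in the strong lines. The matrix-signalling protein CCN2 had 4873 and 5205 units in the sublines and 5095 to 7994 in the strong lines. In both genes the sublines overlapped or adjoined the strong lines and lay above the weak lines, which had 103 to 306 units of IL11 and 927 to 1295 of CCN2. ADAMTS1, a secreted metalloprotease, had 1013 and 1499 units in the sublines and 903 to 1638 in the strong lines, while the weak lines had 13.7 to 70.0. FST, the activin-binding follistatin, had 7806 and 5513 units in the sublines and 4432 to 7403 in the strong lines, against 342 to 481 in the weak ones. SRGN, a proteoglycan of secretory granules, had 6212 and 8386 units in the sublines and 4157 to 7060 in the strong lines. CXCR4, the receptor for CXCL12, had 592 and 464 units in the sublines and 537 to 1888 in the strong lines (log2 difference -0.85, adjusted p = 0.344). MMP1 had 9971 and 4950 units in the sublines and 2896 to 9329 in the strong lines. JAG1, a Notch ligand, had 1188 and 1704 units in the sublines and 1606 to 2864 in the strong lines, and VCAM1, an adhesion molecule, 43.5 and 50.2 units in the sublines and 42.0 to 73.6 in the strong lines. Over the list the median difference of the sublines was 2.17 from the weak bone lines and 1.84 from the parental line. The sign of small differences rests on single arrays: without 1833-modal the difference of IL11 was 0.23 and that of MMP1 -0.13. These tests with 2 and 4 arrays do not show that levels were equal.

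**Figure D2:**
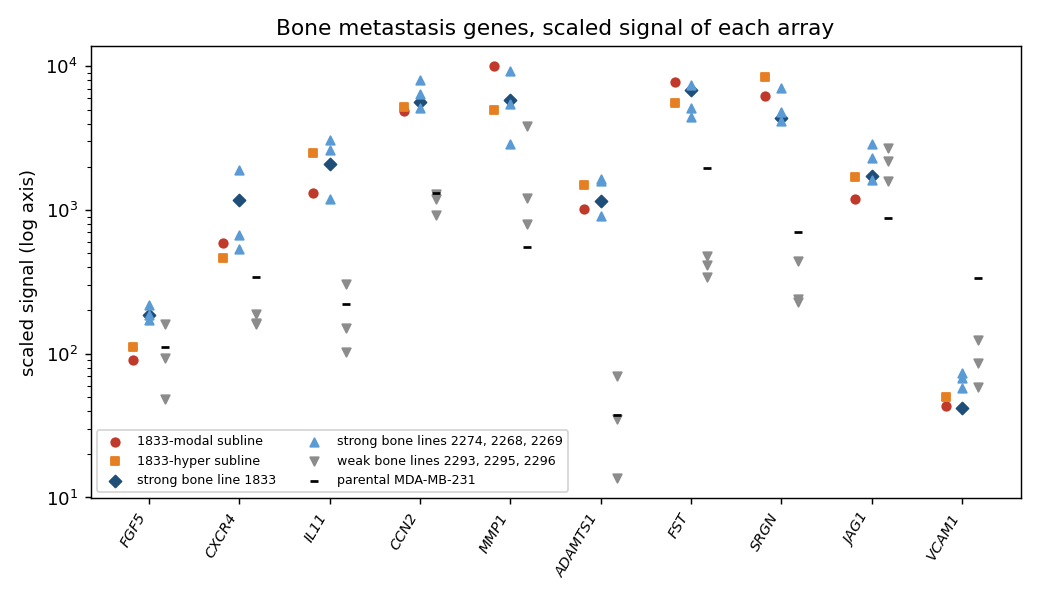
Scaled signal (log axis) of each array for the 10 tested bone metastasis genes; red and orange are the 1833-modal and 1833-hyper sublines, blue the strong bone lines, grey the weak bone lines and the dash the parental line. For IL11, CCN2, ADAMTS1, FST and SRGN the sublines sit with the strong lines and above the weak ones; ADAMTS1 has 1013 and 1499 units in the sublines and 903 to 1638 in the strong lines.

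Of 19 tested genes of the cholesterol synthesis list, which holds sterol and fatty acid enzymes, 6 passed and were higher and 0 were lower, against 2.33% of all genes higher. The other 13 did not pass, 3 of the 19 were below 0, and the list's median difference was 0.92. INSIG1, a sterol-sensing protein of the endoplasmic reticulum that is itself a target of SREBP, had 2690 and 3439 units in the modal and hyper sublines and 497 to 859 in the strong lines (4.88-fold, adjusted p = 0.0191). FASN, fatty acid synthase, had 3238 and 3224 units in the sublines and 522 to 987 in the strong lines, 4.06-fold higher (adjusted p = 0.0249). The parental line had 846 units of FASN and 1691 of INSIG1. MSMO1, a sterol methyl oxidase, had 1589 and 1846 units in the sublines and 453 to 663 in the strong lines (3.16-fold, adjusted p = 0.0212). SQLE, squalene epoxidase, had 752 and 910 units in the sublines and 297 to 408 in the strong lines (2.46-fold, adjusted p = 0.0294). HMGCS1 (log2 difference 1.56, adjusted p = 0.046) and DHCR7 (0.95, adjusted p = 0.041), an early and a late step of the pathway, were the other two. With either subline left out, 0 of the 19 passed, and the median difference was then 0.98 and 0.94. The count was 1 without line 1833, 2 without 2274, 3 without 2268, 3 with eBayes trend and robust, and 2 with no filter on dim probe sets.

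DNA replication genes were higher for 4 of 33 tested members, against 2.33% of all genes, and lower for 0, with a median difference of 0.39 and 28 of 33 above 0. The median difference of the sublines was 0.02 from the parental line and 0.31 from the weak bone lines. In the 4175 sublines against the strong lung lines the list's median was 0.28 on the log2(signal + 16) scale. MCM5, a subunit of the replicative helicase, had 1933 and 2247 units in the sublines and 727 to 1034 in the strong lines (2.26-fold, adjusted p = 0.0387). CDT1, which loads the helicase onto origins, had 584 and 499 units in the sublines and 131 to 226 in the strong lines, 2.87-fold higher (adjusted p = 0.0370). LIG1, which joins Okazaki fragments, had 932 and 1064 units in the sublines and 324 to 498 in the strong lines (2.40-fold, adjusted p = 0.0370). POLE2, a subunit of DNA polymerase epsilon, had 1958 and 1846 units in the sublines and 1014 to 1130 in the strong lines (1.76-fold, adjusted p = 0.0480). Among the 34 tested mitosis genes 1 passed, against 4.29% of all genes in either direction, and the list's median was 0.06. The gene was the kinase PLK1, with 1647 and 1784 units in the sublines and 679 to 918 in the strong lines (2.14-fold, adjusted p = 0.0373). The linker histone H1-2 had 2559 and 3717 units in the sublines and 678 to 1030 in the strong lines, 3.84-fold higher (adjusted p = 0.0212). Of the replication genes 0 passed without 1833-modal, 1833-hyper, 1833 or 2274, or with no filter on dim probe sets, and 2 without 2268, while the list's median with 1 array left out lay between 0.35 and 0.48.

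The promoters of CDT1, LIG1 and POLE2 are shown because each of these genes rose and because replication genes are known targets of E2F. The sequences are from RefSeq on GRCh38.p14, 250 bases before to 50 after each transcription start, 5′ to 3′ on the gene's strand. Capitals mark matches to the words TTTCCCGC, TTTGGCGC, TTTCGCGC or TTTGCCGC on either strand. The regions are chr16:88803539-88803838 (+) for CDT1, chr19:48170295-48170594 (-) for LIG1 and chr14:49688165-49688464 (-) for POLE2.
CDT1: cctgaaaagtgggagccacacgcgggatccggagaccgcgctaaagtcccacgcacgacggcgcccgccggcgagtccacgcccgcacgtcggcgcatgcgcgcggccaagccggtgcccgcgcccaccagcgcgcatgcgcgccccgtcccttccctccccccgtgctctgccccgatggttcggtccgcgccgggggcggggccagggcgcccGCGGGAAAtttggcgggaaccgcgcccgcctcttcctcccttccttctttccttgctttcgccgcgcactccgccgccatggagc
LIG1: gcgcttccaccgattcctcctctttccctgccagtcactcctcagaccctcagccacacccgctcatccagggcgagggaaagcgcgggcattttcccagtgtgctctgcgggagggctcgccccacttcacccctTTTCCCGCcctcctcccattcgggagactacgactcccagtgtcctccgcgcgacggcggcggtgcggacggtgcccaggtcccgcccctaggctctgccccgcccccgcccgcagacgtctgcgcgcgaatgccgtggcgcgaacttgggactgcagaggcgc
POLE2: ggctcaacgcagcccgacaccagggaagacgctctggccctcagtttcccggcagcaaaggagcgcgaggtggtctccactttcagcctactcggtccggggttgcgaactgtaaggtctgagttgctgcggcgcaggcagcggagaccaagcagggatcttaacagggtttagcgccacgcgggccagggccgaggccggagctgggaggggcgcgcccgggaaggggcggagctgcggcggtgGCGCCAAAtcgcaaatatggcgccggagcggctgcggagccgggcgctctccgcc
The matches begin 35, 114 and 5 bases before the transcription start. Such a word was present in 3.33% of 27305 promoters of the table, in 18 of the 30 tested replication genes that the table holds, and in the 3 that rose and are in the table. A match is a description of the letters and does not show binding.

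Of 27 tested unfolded protein and amino acid stress genes, 3 were higher, against 2.33% of all genes, 0 were lower, and the median was 0.42. With no filter on dim probe sets, or with eBayes trend and robust, 1 was higher. PHGDH, the first enzyme of serine synthesis, had 666 and 922 units in the sublines and 243 to 289 in the strong lines (2.95-fold, adjusted p = 0.0212). HERPUD1, an endoplasmic reticulum stress protein, had 2752 and 3397 units in the sublines and 789 to 1388 in the strong lines (2.90-fold, adjusted p = 0.0344). PDIA6, a disulphide isomerase, was 1.90-fold higher (adjusted p = 0.04997). Of 25 tested interferon-stimulated genes, 2 were lower, against 1.96% of all genes, 0 were higher, and the median was -0.31. With no filter 1 was lower, and with eBayes trend and robust 0. IFI27, an interferon-induced mitochondrial protein, had 150 and 160 units in the sublines and 874 to 1396 in the strong lines, 7.16-fold lower (adjusted p = 0.00715). OAS2, a sensor of double-stranded RNA, had 88.8 and 84.7 units in the sublines and 156 to 208 in the strong lines (2.04-fold lower, adjusted p = 0.0400). In the weak and parental lines IFI27 had 2072 to 2651 units, above the strong lines. With either subline left out, 0 genes of both lists passed, and without 1833 or 2274 the counts were 0 unfolded protein genes and 1 interferon-stimulated gene; without 2269, 4 interferon-stimulated genes were lower.

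The IFI27 promoter (chr14:94110486-94110785, + strand, RefSeq on GRCh38.p14) is shown with matches to the interferon-response element, the word TTTC and 2 bases on TTTC again, on either strand in capitals, since this gene had the largest fall of its list.
IFI27: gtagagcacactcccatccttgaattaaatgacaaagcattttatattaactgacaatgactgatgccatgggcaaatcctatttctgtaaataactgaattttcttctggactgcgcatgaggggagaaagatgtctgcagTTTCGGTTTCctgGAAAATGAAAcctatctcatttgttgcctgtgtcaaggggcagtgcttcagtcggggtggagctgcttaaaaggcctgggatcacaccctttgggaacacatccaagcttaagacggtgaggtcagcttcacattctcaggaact
The 2 matches begin 108 and 95 bases before the transcription start. The element was found in 3.65% of 27305 promoters and in 14 of 18 tested interferon-stimulated genes in the table (77.8%). It is a description of the letters only.

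The 3 aldo-keto reductases AKR1C1, AKR1C2 and AKR1C3, which reduce steroids and aldehydes and are targets of NRF2 in human cells, were the 3 of 19 NRF2 response genes that passed, all lower, against 1.96% of all genes. AKR1C2 had 512 and 654 units in the sublines and 3185 to 5387 in the strong lines (6.63-fold lower, adjusted p = 0.0117). AKR1C1 had 1077 and 1388 units in the sublines and 4756 to 7033 in the strong lines (4.67-fold lower, adjusted p = 0.0117). The weak lines lay between the groups, with 996 to 1154 units of AKR1C2. These copies are near-identical, and probes may be shared. Of all 19 genes, 10 were above 0 and 9 below, with a list median of 0.15, and 0 passed with either subline left out. Without 1833-hyper the median was -0.33, and 2 of the list were called without 1833, 2274 or 2268.

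Matrix, adhesion and growth genes moved in both directions. BAX, a mediator of apoptosis and p53 target, had 1457 and 1575 units in the sublines and 154 to 380 in the strong lines (6.05-fold, adjusted p = 0.0224). PMAIP1, another p53 target, had 2613 and 2701 units in the sublines and 4824 to 6060 in the strong lines, and was 2.01-fold lower (adjusted p = 0.0384). The p53 list thus had 1 of 15 genes in each direction. ACTN4, an actin cross-linker, was 3.02-fold higher (5709 and 9263 units in the sublines and 1813 to 2979 in the strong lines, adjusted p = 0.0382), and FSCN1, the filopodial bundling protein fascin, 2.32-fold higher (1082 and 1067 units in the sublines and 415 to 524 in the strong lines, adjusted p = 0.0255). JUP, plakoglobin, was 2.52-fold higher (adjusted p = 0.0392), and PPL, periplakin, rose as well (adjusted p = 0.0380), with every strong line at or below the 40th percentile, while the weak lines had more of both than the sublines.

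The laminin chain LAMA5 had 1334 and 1378 units in the sublines and 363 to 543 in the strong lines (3.05-fold, adjusted p = 0.0255), and the collagen COL8A1 405 and 293 units in the sublines and 130 to 178 in the strong lines (2.41-fold, adjusted p = 0.0377). The collagen VI chains COL6A3 (121 and 187 units in the sublines, 405 to 674 in the strong lines, 3.44-fold lower, adjusted p = 0.0300) and COL6A2 (212 and 114 in the sublines, 405 to 582 in the strong lines, 3.16-fold lower, adjusted p = 0.0376) fell. TIMP1, an inhibitor of metalloproteases, had 2661 and 3422 units in the sublines and 6653 to 8873 in the strong lines (2.63-fold lower, adjusted p = 0.0257). POSTN, periostin, had 32.4 and 21.5 units in the sublines and 60.1 to 106 in the strong lines, at least 1.02-fold lower (adjusted p = 0.0382). Of the lung metastasis genes, ANGPTL4, an inhibitor of lipoprotein lipase, was 5.97-fold lower (91.1 and 80.1 units in the sublines, 333 to 686 in the strong lines, adjusted p = 0.0179) and EREG, an EGF receptor ligand, 3.46-fold lower (182 and 209 units in the sublines, 583 to 927 in the strong lines, adjusted p = 0.0224), while FSCN1 rose.

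Among signalling genes, IGFBP3 was 2.10-fold lower (adjusted p = 0.0475), BAMBI, a TGF-beta pseudoreceptor, 2.63-fold lower (adjusted p = 0.0294), and KLF4 2.14-fold lower (adjusted p = 0.0387). ASAP1 rose 2.61-fold (adjusted p = 0.0372). TGFB1 rose 2.41-fold (adjusted p = 0.0358) by its brightest probe set, but its other kept probe set had a difference of -2.46, so the direction of TGFB1 is not settled. BNIP3L fell 2.38-fold (adjusted p = 0.0481), and its other probe set had 0.06. HLA-DRA, of MHC class II, had 64.9 and 126 units in the sublines and 257 to 325 in the strong lines (3.17-fold lower, adjusted p = 0.0358). LCP1, an actin bundler of leukocytes, had 205 and 722 units in the sublines and 38.8 to 77.9 in the strong lines, at least 4.54-fold higher (adjusted p = 0.0418). It was the only 1 of 13 tested leukocyte markers that passed, against 4.29% of all genes in either direction.

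Other lists held few or no calls, where 4.29% of all tested genes were called in either direction. For lists of this size such counts are near that background and are not results about the lists. Among 9 acute phase and complement genes 0 passed (2 at an unadjusted p under 0.05) and the median was -0.59. LCN2, the iron-binding lipocalin 2, had 9.38 and 41.1 units in the modal and hyper sublines and 54.6 to 178 in the strong lines (adjusted p = 0.101), so it was dim in both groups, while the weak lines had 3548 to 4577. Of 12 MHC class I and immunoproteasome genes 0 passed (4 at an unadjusted p under 0.05), with a median of -0.24. HLA-B, which presents peptides to T cells, had 5892 and 7472 units in the sublines and 10963 to 18986 in the strong lines (adjusted p = 0.0682), on a probe set that related class I genes can share. Of 26 oxidative phosphorylation genes 1 passed, NDUFA8 of complex I, which had 947 and 792 units in the sublines and 1808 to 2459 in the strong lines (2.54-fold lower, adjusted p = 0.0260); this call was lost without either subline, without 1833 or without 2274. Among 22 ribosome biogenesis and MYC target genes 0 passed (5 at an unadjusted p under 0.05); MYC itself had 2146 and 1780 units in the sublines and 2748 to 3320 in the strong lines (adjusted p = 0.0961). Of 11 heat shock genes 0 passed (3 at an unadjusted p under 0.05), and the co-chaperone BAG3 had 3141 and 3874 units in the sublines and 1768 to 2041 in the strong lines (adjusted p = 0.0516).

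**Figure D3:**
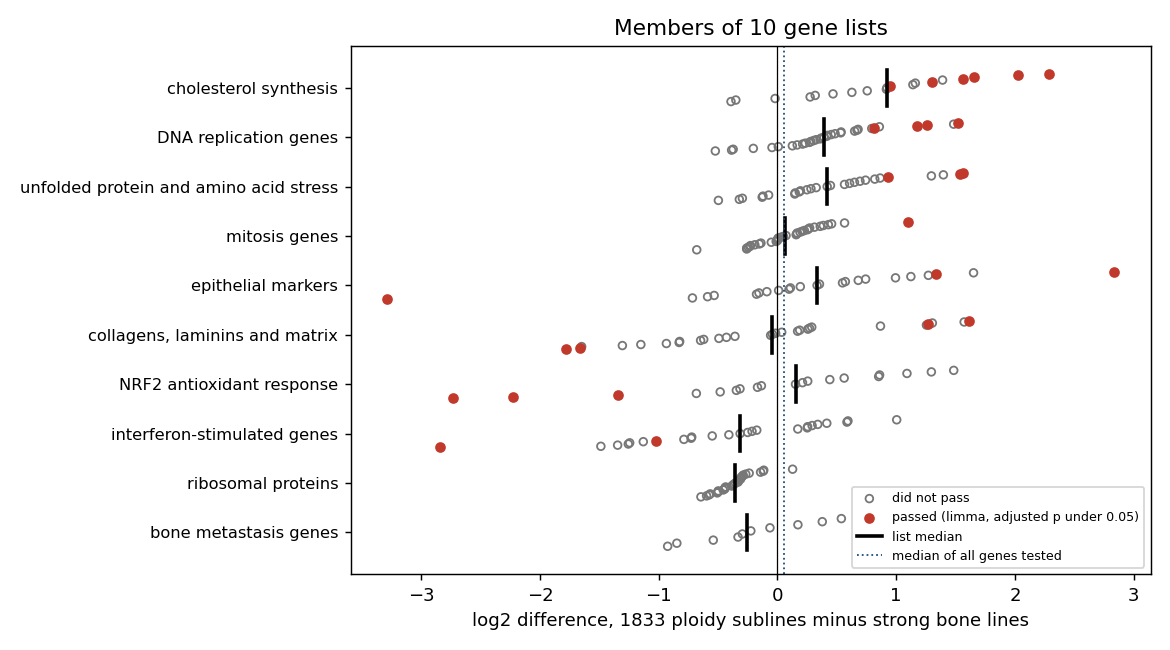
log2 difference, 1833 ploidy sublines minus strong bone lines, for each tested member of 10 gene lists; filled points passed limma at an adjusted p under 0.05, the bar is the list's median and the dotted line the median of all genes tested. The cholesterol synthesis list has a median of 0.92 and 6 filled points above 0; 28 of 29 ribosomal protein genes lie below 0 with 0 filled points.

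In chromosomal order, some differences shared by neighbouring genes stood out, and these were chosen after the values were seen. The 9107 tested genes with a place in the RefSeq table were cut into 445 windows of at least 20 consecutive genes, and log2 ratios were centred on each array's median. The window medians of the differences had an absolute median of 0.13. They were below -0.5 in 9 windows and above 0.5 in 4. In the 4175 sublines against the strong lung lines, 0 windows were below -0.5 and 3 above 0.5. On the log2(signal + 16) scale, which shrinks differences of dim genes, 9 windows were below -0.5 and 0 above 0.5.

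On X, 4 windows were below -0.5, all among the first 9. In those 9 windows, from PLCXD1 at the short-arm end to ATP7A, 150 of 180 genes had differences below 0, and window medians of the difference ran from -0.69 to -0.25. By array, the window medians ran from -0.72 to -0.35 in 1833-modal and from -0.62 to -0.21 in 1833-hyper, against -0.06 to 0.10 in the original 1833, -0.05 to 0.24 in 2274, -0.11 to 0.22 in 2268 and -0.11 to 0.14 in 2269. In the next 5 windows 1833-modal stayed low (-0.42 to -0.22), while 1833-hyper, at -0.03 to 0.16, lay among the strong lines. Of the 9 tested genes of the pseudoautosomal region, which X and Y share, all 9 were below 0, 7 had both sublines below all 4 strong lines, where 15.7% of all tested genes did, and the median was -0.89; the 4175 pair had a median of 0.40 for them. CSF2RA, the GM-CSF receptor alpha chain, had 96.1 units in 1833-modal and 21 in 1833-hyper, against 396, 468, 381 and 343 in lines 1833, 2274, 2268 and 2269 (8.77-fold lower, adjusted p = 0.0370). PLCXD1 had 20.4 and 82.6 units in the modal and hyper sublines and 309 to 380 in the strong lines (8.09-fold lower, adjusted p = 0.0344). In CSF2RA the hyper subline and in PLCXD1 the modal one was the lower.

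The windows below -0.5 on chromosome 9 lay in its long arm, from EPB41L4B to PDCL and from SURF2 to EHMT1. Without 1833-hyper, and with windows of 40 genes, 0 windows of chromosome 9 were below -0.5. UGCG, which makes glucosylceramide, had 1126 and 971 units in the sublines and 3804 to 5618 in the strong lines (log2 difference -2.14, adjusted p = 0.012). GSN, the actin-severing protein gelsolin, had 533 and 463 units in the sublines and 1437 to 1863 in the strong lines (-1.70, adjusted p = 0.016). Over all of chromosome 9, 74.6% of 346 tested genes were below 0, and on X 74.7% of 336. The last 3 windows of chromosome 16, from AP1G1 to the end of the long arm, held 20, 20 and 33 tested genes and were at 0.57, 0.56 and 0.62. In them 11 genes, CDT1 among them, were called higher and 0 lower, where 2.33% of all genes were called higher. These windows were picked by the same differences, so an excess of higher genes follows from the choice. The 4175 medians of the 3 windows were -0.17, -0.14 and 0.01. GLG1, a Golgi glycoprotein, had 2180 and 1871 units in the sublines and 530 to 801 in the strong lines (1.65, adjusted p = 0.021). The window with the lowest median, -0.84, held the kallikrein and zinc finger genes from KLK6 to ZNF611 on 19; in the 4175 pair it was at -0.37. DNA copy number was not measured.

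**Figure D4:**
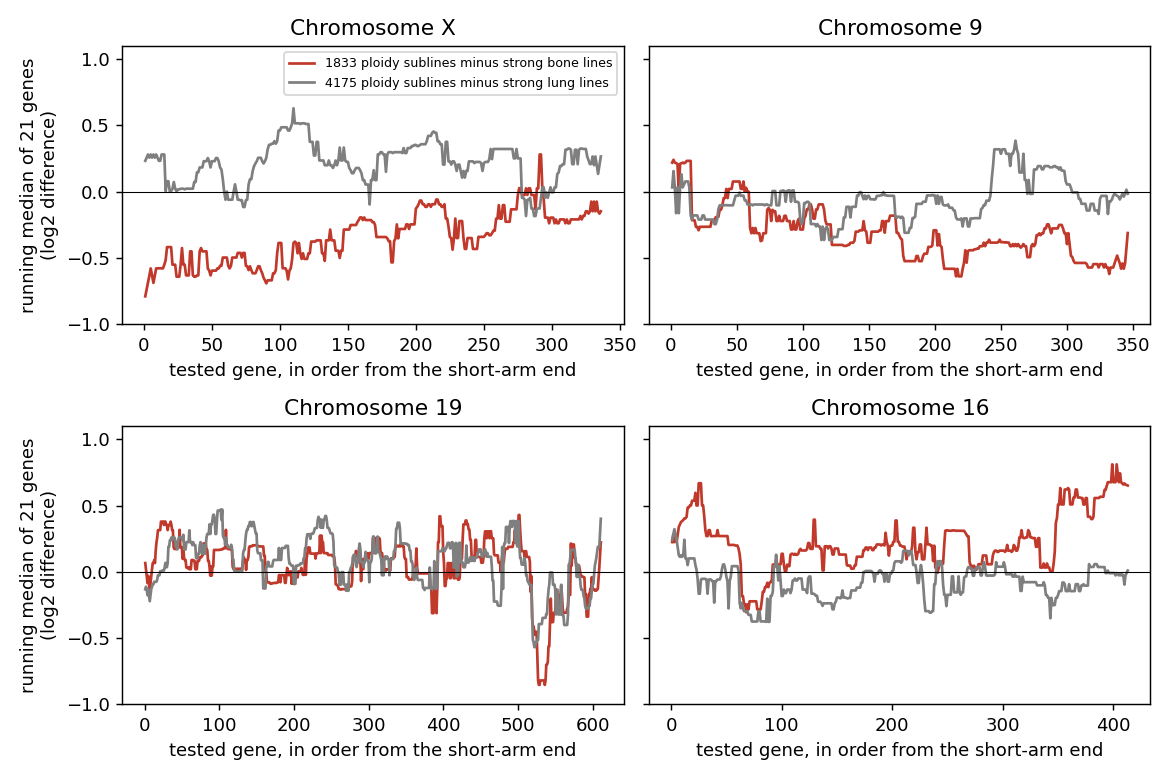
Running median over 21 neighbouring tested genes of the log2 difference on chromosomes X, 9, 19 and 16, for the 1833 ploidy sublines minus the strong bone lines (red) and the 4175 ploidy sublines minus the strong lung lines (grey); the horizontal axis counts tested genes from the short-arm end. The red line is low along most of X and the long arm of 9, and high at the end of 16, where window medians are 0.57, 0.56 and 0.62.

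The 4175 sublines, of a lung-metastatic line, gave a second pair with likewise low mean recovered signals. Of the 391 genes called, 298 (76.2%) had the same sign in the 4175 sublines minus the strong lung lines on the log2(signal + 16) scale. These were 165 of the 212 higher genes and 133 of the 179 lower ones. Over all 9117 genes, 4946 were above 0 in the 4175 pair and 4171 below. In limma over the 12 arrays of both pairs, 65 of the higher and 34 of the lower genes passed in the same direction in the 4175 pair. The share of all tested genes that passed there is not given here, so these counts are descriptions only. The test of the difference between the 2 differences passed for 308 of the 9117 genes (3.38%), 128 higher (1.4%) and 180 lower (1.97%), and for 97 of the 391. It cancels an effect shared by the subline arrays only as far as the bone and lung arrays were handled alike. Scaled spike-in controls were 10.13 and 10.36 on the 4175 subline arrays and 10.27 to 10.97 on the strong lung arrays, which overlap. The 1833 subline arrays, at 10.32 and 10.35, lay below the strong bone arrays, at 11.26 to 11.84. How much of such an effect cancels was not tested. MAGEA6 had 7.24 in the 1833 pair and 0.20 in the 4175 pair (interaction adjusted p = 0.00139), and SPANXB1 had 4.71 and -2.14 (adjusted p = 0.00844). CCL2 was higher in both pairs, by 6.29 and 1.65, and the difference passed (adjusted p = 0.000794). TFF1 had -4.49 in the 1833 pair and -1.21 in the 4175 pair (adjusted p = 0.0179). The strong lung lines had only 61.3 to 246 units of TFF1, against 1742 to 2944 in the strong bone lines. It therefore had less room to fall in the 4175 pair, and its interaction does not show a fall particular to the 1833 sublines. CSF2RA had -2.67 in the 1833 pair and 0.56 in the 4175 pair (adjusted p = 0.0212). The lowest interaction differences were those of TFF1, CSF2RA, STEAP1B (-2.82), the kinase SIK2 (-2.78) and ZNF155 (-2.55), each with an adjusted p under 0.05.

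For CST4 and INSIG1 the interaction did not pass. CST4 had -3.35 in the 1833 pair and -3.47 in the 4175 pair, with an interaction adjusted p = 0.952, and INSIG1 had 2.26 and 1.90 (adjusted p = 0.740). The cholesterol list's median was 0.72 in the 4175 pair, while 1 of its genes, SQLE, passed the interaction (an interaction difference of 1.53, adjusted p = 0.0261). An interaction that does not pass does not show equal changes. Of the bone metastasis genes, SRGN (-1.996, adjusted p = 0.0242) and JAG1 (2.37, adjusted p = 0.0237) differed between the pairs.

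**Figure D5:**
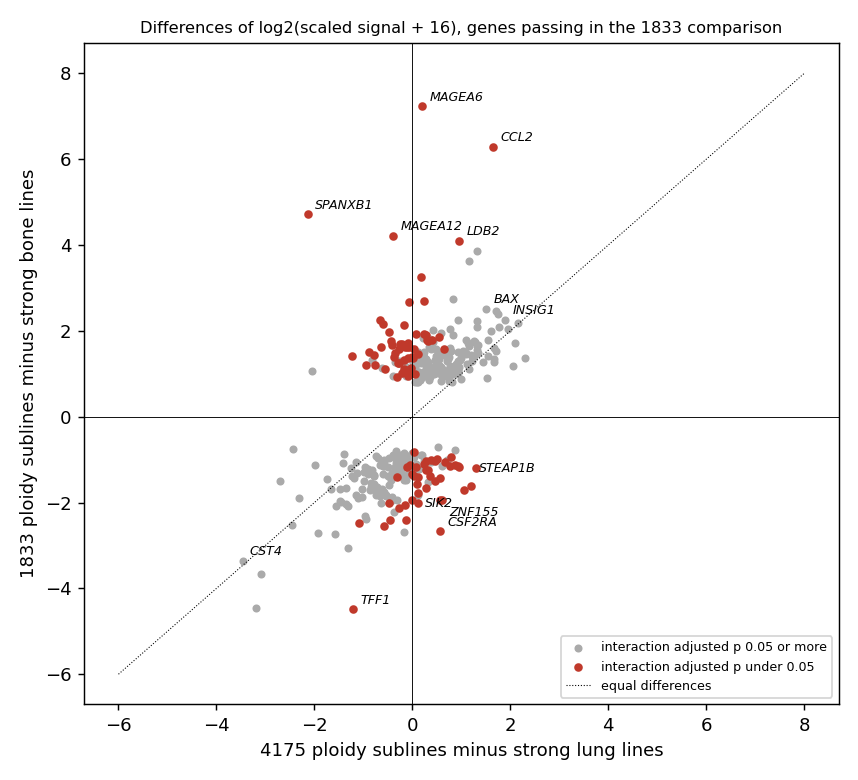
Differences of log2(scaled signal + 16) for the 391 genes called in the 1833 comparison, with the 1833 pair on the vertical axis and the 4175 pair on the horizontal axis; red points pass the interaction test at an adjusted p under 0.05 and the dotted line marks equal differences. MAGEA6, CCL2 and SPANXB1 lie far above that line, TFF1 and CSF2RA below it, and CST4 close to it.

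Within the called genes, 17 of 391 differed over 2-fold between 1833-hyper and 1833-modal, where 429 of all 9117 did. LDB2 and LCP1 were the higher in the hyper subline and CRIP2 and CSF2RA the lower in it. A call against the strong lines therefore did not always mean equal levels in the 2 sublines.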

How the data were processed

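The authors deposited, for each array, linear ratios per probe set (Affymetrix, 22283 probe sets), with RNA from a column kit and biotin-labelled cRNA, per the labels' protocols; their image analysis and normalisation software is not given in the sources used here. From the values alone, each ratio is a signal times an array factor over a divisor shared by 10 arrays (a second set of 9 has its own), and signals in steps of 0.1 were recovered for 98.7% of probe sets; the 287 brightest were solved by a longer search. Gene names came from the platform annotation, where 19071 probe sets had 1 symbol, 1043 several and 2169 none, and 19059 matched the RefSeq table for GRCh38.p14. Where a gene had several kept probe sets, the brightest on average was used. Groups were fitted on log2 ratios with limma 3.58.1 in R 4.3.3 (lmFit, eBayes, 4 residual and 2.74 prior degrees of freedom), and the interaction on log2(signal + 16) over 12 arrays. Where the dimmer group lay at or below the 40th percentile, folds are bounds. The scripts were tested on simulated data. The members and lists were chosen with earlier results of these data known. Named were the 12 highest and lowest differences that passed outside the range of the strong lines and above the 40th percentile in the brighter group, up to 4 passing members of each list by p (otherwise 2 by size), all bone metastasis genes and the 5 extreme interactions each way; genes of families and windows were added after their values were seen. The number of arrays limits precision. Alternatives are given in the closing section.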

Additional observations from a re-analysis of the deposited data

Results flagged for a closer look

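Differences between the 1833 and the 4175 pair, as (1833 sublines minus strong bone lines) minus (4175 sublines minus strong lung lines) in log2(signal + 16), passed limma's interaction test for 25 named genes. Higher in the 1833 pair were MAGEA6 (7.04), SPANXB1 (6.85), CCL2 (4.64), MAGEA12 (4.599), LDB2 (3.15), OLFML3 (3.07), EPB41L3 (2.74), JAG1 (2.37), TM7SF3 (2.32), H1-2 (1.85), MT1F (1.64), LAMA5 (1.55), SQLE (1.53) and BAG3 (0.94). Lower in the 1833 pair were TFF1 (-3.28), CSF2RA (-3.23), STEAP1B (-2.82), SIK2 (-2.78), ZNF155 (-2.55), SRGN (-1.996), PCOTH (-1.96), PLCXD1 (-1.95), COL6A2 (-1.65), SLC1A2 (-1.53) and BAMBI (-1.32). Of these, SRGN, JAG1, BAG3 and MT1F did not pass against the strong bone lines.

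Single strong bone lines lay far from the other 3 in their ratio. Line 1833 was the high one for TM7SF3 (ratio 1.09), LRIG1 (0.344) and CRIP2 (2.13). Line 2268 was high for EREG (1.57) and COL8A1 (1.35). Line 2269 was low for HSPB1 (0.472) and EGFR (1.21). Chance alone flags about 1 in 20 groups in this way.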

How the results depend on the processing

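No paired analysis was possible, because each line has 1 array and both sublines come from the same line, 1833. The labels carry no replicate numbers, and those used here only name the arrays. In the comparison with the strong bone lines (212 higher, 179 lower), the counts of higher and lower genes were 387 and 428 with quantile-normalised signals, 54 and 63 with no filter on dim probe sets, 543 and 335 with the 60th percentile filter, and 465 and 358 with 10 arrays in 4 groups. Centring the log2 ratios on each array's median gave 317 and 311, log2(signal + 16) gave 312 and 237, the mean of all kept probe sets 172 and 137, and eBayes with trend and robust 149 and 74. Leaving out 1 array gave 2 to 246 higher and 7 to 253 lower genes. For the difference between the 1833 and 4175 pairs (128 higher, 180 lower), a constant of 64 gave 224 and 263, quantile normalisation 236 and 254, 19 arrays in 7 groups 75 and 97, and no filter 100 and 108; leaving out 1 array gave 11 to 248 higher and 12 to 433 lower. Directions turned for SLC1A2, where no filter chose another probe set (1.003 in the comparison, 1.28 for the difference between pairs), for TGFB1 (-0.59) and FST (-0.10) with the mean of all probe sets, and, without 1833-modal, for IL11 (0.23; leaving out single arrays -0.68 to 0.23), MMP1 (-0.13; -0.13 to 0.88), ADAMTS1 (0.22) and FST (-0.079; -0.079 to 0.42). ADAMTS1 also turned without 2274 (0.04) and without 2268 (0.05). For other changes of value the cause was not tested. All other named genes kept their direction in every alternative of the comparison. Among named genes in the other alternatives, 630 values kept their side of the threshold, 96 no longer passed and 22 newly passed. The mean of all kept probe sets lost the calls of AKR1C3, BNIP3L, COL6A2, CST6, HLA-DRA and IGFBP3. It also lost those of KLF4, LRIG1, MCM5, PDIA6, PMAIP1 and SQLE. The ribosomal protein median moved from -0.35 to -0.11 with quantile normalisation. Among DNA replication genes 0 were called without either subline, without 1833 and without 2274, and 2 without 2268; of the unfolded protein genes 0 without either subline, 1833 or 2274; of the interferon-stimulated and NRF2 response genes 0 without either subline. Windows of 10 neighbouring genes gave 26 below -0.5 and 25 above 0.5, and windows of 40 gave 4 and 1; without 1833-modal there were 8 and 8, and without 1833-hyper 9 and 2. Chromosome 9 had windows below -0.5 without 1833-modal, but 0 without 1833-hyper and 0 with windows of 40 genes. With no filter on dim probe sets, 0 DNA replication genes, 2 cholesterol synthesis genes and 1 unfolded protein gene were called higher. These windows were chosen after seeing the data. Recovered signals of the 287 brightest probe sets are uncertain as levels, not as ratios.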

Other observations

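Of 29 tested ribosomal protein genes, the building blocks of the ribosome, 0 passed limma, against 4.29% of all genes (7 of the 29 had an unadjusted p under 0.05). Differences were below 0 for 28 of 29, with a median of -0.35, or -0.11 with quantile normalisation; 15 of the 29 had both sublines below the 4 strong lines, where 15.7% of all genes did. Of 8 tested metallothioneins, zinc- and copper-binding proteins, 0 passed limma, against 4.29% of all genes (2 of the 8 had an unadjusted p under 0.05). Differences were above 0 for 7 of 8, with a median of 0.53, which was 0.86 without 1833-modal and 0.24 without 1833-hyper. Against the original 1833 line the list's median was -0.29 in 1833-modal and 0.29 in 1833-hyper. MT1G had 3600 and 5287 units in the sublines and 1405 to 3416 in the strong lines (adjusted p = 0.142). Replication-dependent histones had 6 of 8 tested members above 0 and a median of 0.60, and 1 passed, against 4.29% of all genes.

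A window on chromosome 2, from ROCK2 to FKBP1B, had a median of 0.55 in the 1833 pair and 0.41 in the 4175 pair. TRIB2, a pseudokinase, had 1244 and 1755 units in the sublines and 393 to 633 in the strong lines (log2 difference 1.63, adjusted p = 0.030). CYRIA, a regulator of actin, had 519 and 1011 units in the sublines and 118 to 201 in the strong lines (2.28, adjusted p = 0.026). These genes were chosen after their values were seen.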
